A study of Homo sapiens with 3 samples.

Results

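The simple biliary keratins are 4 genes, KRT7, KRT8, KRT18 and KRT19, taken by their gene symbol from the tables of 58892 genes of a human cholangiocarcinoma series; all 4 were found, each under a single gene ID. The libraries were L5, the subline KKU-213L5 in DMEM with 25 mM glucose; HG, the line KKU-213 in DMEM with 25 mM glucose; and NG, KKU-213 in DMEM with 5.6 mM glucose. The serum and antibiotic supplements were the same for all cultures, which had gone past passage 5. KKU-213 is an established cell line whose tumour arose in the intrahepatic bile ducts, and KKU-213L5 was derived from it and is known for its metastatic behaviour. Cells were confluent when harvested. Each group had 1 library, so no difference has a replicate check and there is no test across samples. A difference of line or of glucose cannot be told apart from a difference between single cultures.

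Keratins are the intermediate filament proteins of epithelial cells. A filament is built from pairs of a type II and a type I chain, and a chain without a partner is degraded. KRT8 (type II) and KRT18 (type I) form the basic pair of simple epithelium, the only keratin pair of hepatocytes, while KRT7 (type II) and KRT19 (type I) are added in bile duct cells, so that pathologists stain KRT7 and KRT19 to recognise bile ducts and cholangiocarcinoma. KRT19 is the smallest keratin, almost without a tail domain. The levels below are FPKM, fragment counts divided by transcript length and by library size, and can therefore be compared between genes.

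KRT8 and KRT18 have many processed pseudogenes, copies of the spliced mRNA elsewhere in the genome, with which reads can be shared. The gene tables hold 44 pseudogenes named for KRT8, 42 for KRT18, 5 for KRT19 and none for KRT7. Every 100-base stretch of the main transcript, the length of a read, was compared without gaps with the other keratin transcripts and keratin pseudogenes of GENCODE 29. Of the 1783 stretches of KRT8, 44.0% matched another such transcript with at most 2 mismatches and 6.73% matched exactly. For KRT18, 25.2% of 1321 stretches matched with at most 2 mismatches and none exactly. No stretch of KRT7 (of 1655) or KRT19 (of 1291) matched at that level, so the values of these genes are the least exposed to sharing of reads. Most of the matching stretches of KRT8 matched KRT8P3 (583 of 784), and KRT18P11 led for KRT18 (156 of 333). To show what such a copy looks like, the 100 coding bases with the fewest mismatches of KRT18 and KRT19 are printed beside those of a pseudogene with reads, KRT18P38 and KRT19P1, with the differing bases in capitals. The stretches lie at chr12:52949501-52950337 (plus strand, across an intron) in KRT18 and chr6:19613058-19613157 (plus strand) in KRT18P38, and chr17:41525195-41527848 (minus strand, across an intron) in KRT19 and chr6:71585111-71585210 (plus strand) in KRT19P1, all on GRCh38.
KRT18: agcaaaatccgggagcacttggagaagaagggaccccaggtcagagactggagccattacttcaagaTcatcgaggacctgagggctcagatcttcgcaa
KRT18P38: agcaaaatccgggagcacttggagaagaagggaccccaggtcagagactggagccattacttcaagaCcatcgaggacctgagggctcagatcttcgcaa
KRT19: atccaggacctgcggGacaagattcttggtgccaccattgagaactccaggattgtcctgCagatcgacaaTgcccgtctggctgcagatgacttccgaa
KRT19P1: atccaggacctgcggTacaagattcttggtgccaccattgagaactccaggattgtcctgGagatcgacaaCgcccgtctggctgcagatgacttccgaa
These pairs differed at 1 base for KRT18 and 3 bases for KRT19. The pseudogenes were listed at low values all the same. The 44 named for KRT8 summed to 13.7 FPKM in L5, 13.1 in HG and 14.2 in NG, between 3.20% and 3.63% of KRT8, led by KRT8P3 (6.83, 6.63 and 6.99 FPKM), KRT8P12 (2.89, 3.14 and 4.23 FPKM) and KRT8P45, which stayed under 1 FPKM. Those of KRT18 summed to 1.45, 1.36 and 1.25 FPKM, led by KRT18P38, KRT18P34 and KRT18P4, and that of KRT19 with any reads, KRT19P1, was at 0.332, 0.171 and 0.0906 FPKM.

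All 4 simple keratins were abundant in every library, where they ranked between 97th and 296th by FPKM, and 12999 genes of L5, 12844 of HG and 13240 of NG reached 1 FPKM. KRT7, KRT8 and KRT18 differed by log2 ratios of at most 0.39 in size between any pair of libraries, while KRT19 was higher in L5 and HG than in NG. KRT7 was listed at 789 FPKM in L5, 784 in HG and 992 in NG. It was the most abundant of the 4 in each library, ranking 102nd, 110th and 97th among all genes, and NG stood apart as the high library. KRT8 was listed at 430 FPKM in L5, 361 in HG and 397 in NG. KRT18, its partner, was listed at 403 FPKM in L5, 321 in HG and 421 in NG. By gene FPKM HG was the low library for both genes of this pair, KRT8 being highest in L5 and KRT18 in NG. The full-length coding transcript of KRT8 was level, at 299 FPKM in L5, 296 in HG and 306 in NG. KRT19 was listed at 567 FPKM in L5, 477 in HG and 280 in NG. Its order, L5 above HG above NG, was shared by none of the other 3, and its rank was 135th in L5, 160th in HG and 296th in NG. By level the order was KRT7, KRT19, KRT8, KRT18 in L5 and in HG, and KRT7, KRT18, KRT8, KRT19 in NG, so KRT19 was second in the 25 mM cultures and last in the 5.6 mM culture. Neighbours in each order had intervals that did not overlap, KRT8 and KRT18 being the closest, at 428 to 443 and 404 to 415 FPKM in L5, 359 to 372 and 321 to 331 in HG, and 392 to 410 and 419 to 435 in NG.

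**Figure D1:**
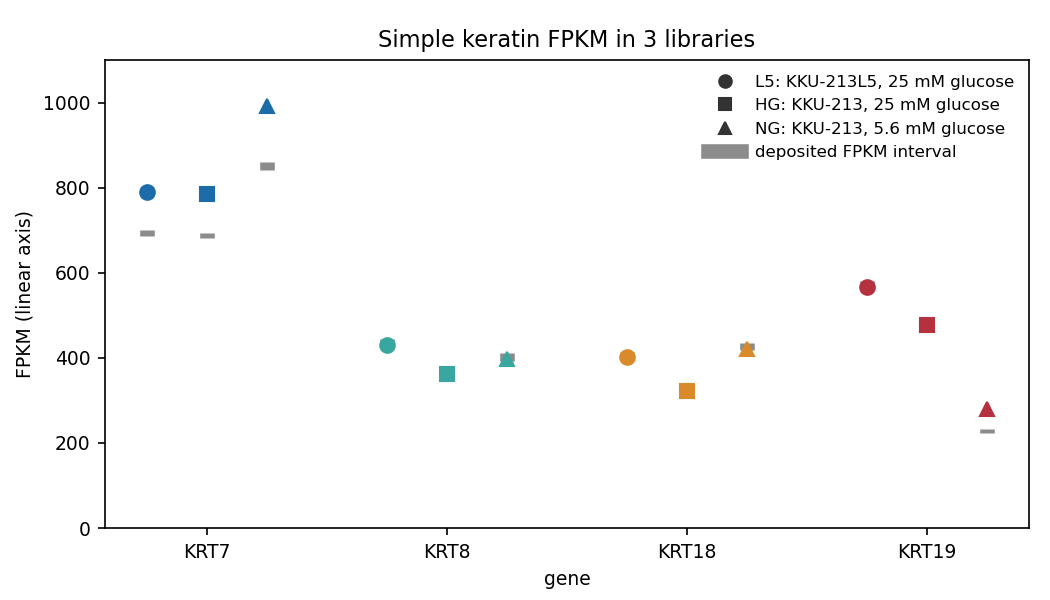
FPKM (linear axis) of KRT7, KRT8, KRT18 and KRT19 in L5 (circles), HG (squares) and NG (triangles), 1 library each, with the deposited FPKM interval as a grey bar. KRT19 is at 567, 477 and 280 FPKM, and the bars of KRT7 in every library and of KRT19 in NG lie below their points.

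The deposited interval around each FPKM is a counting interval and does not describe the spread between cultures. It was narrow for these genes, which drew about 16301 fragments (KRT19 in NG) to 99125 (KRT7 in HG) each, as estimated from the transcript coverage. For KRT7 the interval lay below the listed FPKM in all 3 libraries, at 687 to 702 FPKM in L5, 681 to 693 in HG and 843 to 859 in NG. For KRT19 it lay below the listed FPKM in NG alone, at 223 to 233 FPKM, against 564 to 581 FPKM in L5 and 474 to 487 in HG, which held their values. The listed FPKM of KRT19 in NG was therefore 1.23 times the midpoint of its interval, whereas that ratio was 0.991 in L5 and 0.993 in HG. The intervals of KRT8 held their FPKM in every library, and that of KRT18 missed it by under 1 FPKM in L5. Such gaps were common in these tables: of genes at 100 FPKM or more, 24.9% in L5, 25.7% in HG and 25.5% in NG were listed above their interval. The log2 ratios of KRT19 to NG and the type II to type I ratios are therefore also given from interval midpoints; the other values of KRT19 in NG come from the listed FPKM alone.

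In HG against NG, the comparison of high with normal glucose in KKU-213, KRT19 was higher in HG under every scaling tried. KRT7 and KRT18 were lower under each. KRT8 was lower too, but its log2 ratio with TPM scaling was -0.01, smaller in size than its counting standard error. The log2 ratio of FPKM + 1 was 0.77 ± 0.02 for KRT19 (± is the counting standard error), a 1.71-fold higher level in HG. KRT7 stood at -0.34 ± 0.01, KRT18 at -0.39 ± 0.02 and KRT8 at -0.14 ± 0.02, beside a median of -0.09 over all 13383 genes measured. Over the 845 genes that averaged 100 FPKM or more the median was -0.14, the value of KRT8. None of the 4 reached a log2 ratio of 1 in size, that is 2-fold, which is called the size rule here. Of all genes 4.19% did, 1.32% higher and 2.88% lower. All 4 had separate intervals, KRT19 higher and the other 3 lower, but so had 48.9% of all genes, 17.7% higher and 31.2% lower. Only 20 of the 845 genes that averaged 100 FPKM or more had a ratio as high as that of KRT19 or higher, itself included. With interval midpoints in place of the listed values, a choice made after seeing the data, the log2 ratio of KRT19 was 1.07 and passed the size rule.

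In L5 against HG, at the same labelled glucose, KRT8, KRT18 and KRT19 were all modestly higher in L5, except under spike-in scaling, where all 4 were lower, and KRT7 differed by less than its counting error. The log2 ratios were 0.33 ± 0.02 for KRT18, 0.25 ± 0.02 for KRT8, 0.25 ± 0.02 for KRT19 and 0.01 ± 0.01 for KRT7. The median over all 13129 genes was -0.01. None of the 4 passed the size rule, which 2.23% of all genes passed, 1.72% higher and 0.510% lower. KRT8, KRT18 and KRT19 had separate intervals, higher in L5, beside 43.1% of all genes, of which 21.0% were higher and 22.1% lower. The ratio of KRT19 was smaller here than in HG against NG.

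In L5 against NG, which differ by label in the line and in glucose, KRT19 was the 1 member past the size rule. Its log2 ratio was 1.02 ± 0.02 or 2.03-fold, close to the limit of 1. KRT19 stayed past the limit in 10 of 12 other processing settings, but not with spike-in scaling (0.21) or its main transcript alone. Of all 13474 genes, 3.92% passed, 1.89% higher and 2.03% lower in L5. Interval midpoints gave 1.32. The main transcript of KRT19 alone gave 0.96, just under the limit. KRT7 stood at -0.33 ± 0.01, KRT18 at -0.06 ± 0.02 and KRT8 at 0.11 ± 0.02, with a median of -0.10 over all genes. The sign of KRT18 turned with median scaling (0.04) and TPM scaling (0.09), and that of KRT8 with spike-in scaling (-0.69) and with its main transcript alone (-0.04). KRT8 and KRT19 had separate intervals and were higher, KRT7 and KRT18 lower, and 46.9% of all genes had such intervals, 16.5% higher and 30.4% lower. Of 834 genes averaging 100 FPKM or more, 12 had a ratio of KRT19's size or higher, itself included. The 3 comparisons share libraries, so a value that is high in NG enters the ratios of HG and of L5 to NG alike.

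**Figure D2:**
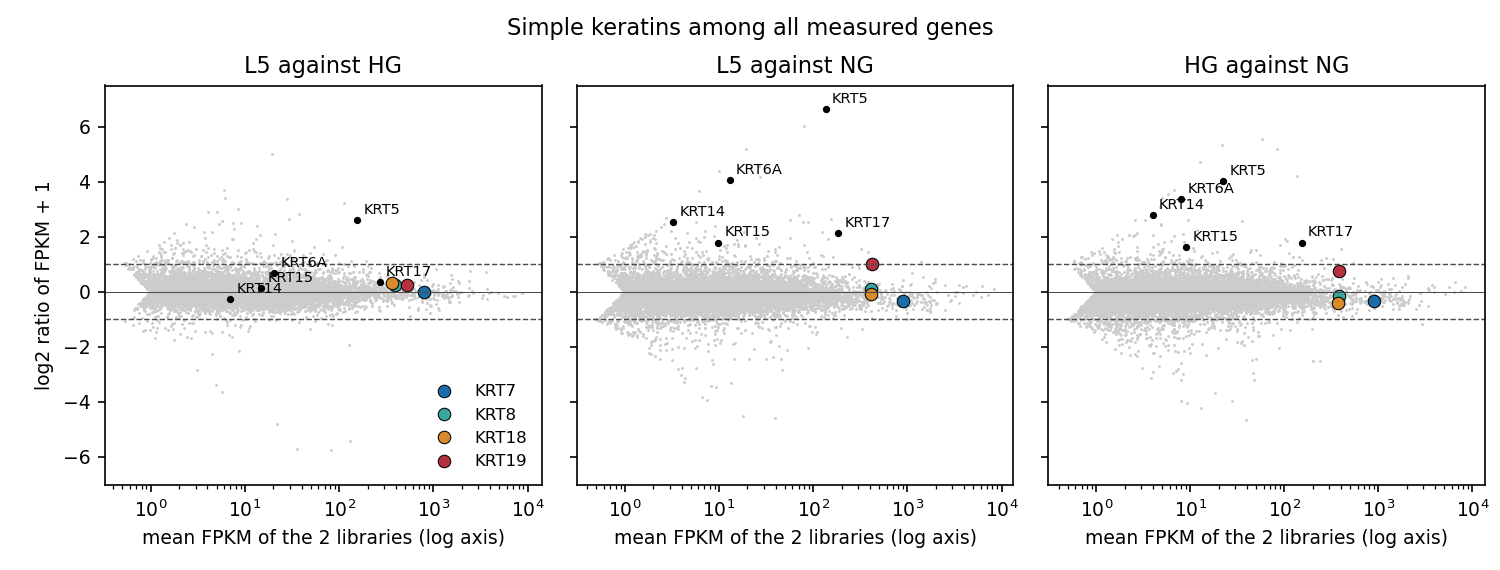
Log2 ratio of FPKM + 1 against mean FPKM (log axis) for every measured gene (grey) in L5 against HG, L5 against NG and HG against NG, with the 4 simple keratins in colour and 5 other keratins in black. The dashed lines mark a ratio of 1 in size; KRT19 lies at 0.25, 1.02 and 0.77, and KRT5 lies far above the lines in all 3.

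FPKM is relative to each library's total. Scaled to the 92 spike-in sequences, whose summed FPKM was 46009 in L5, 33206 in HG and 26331 in NG, the median of all genes moved to -0.41 in L5 against HG, -0.79 in L5 against NG and -0.39 in HG against NG. On that scale KRT19 stood at -0.22, 0.21 and 0.44 in the same comparisons, above the median of all genes in each, and KRT7 at -0.46, -1.13 and -0.67. How the spike-ins were dosed is not given in the sources used here.

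**Figure D3:**
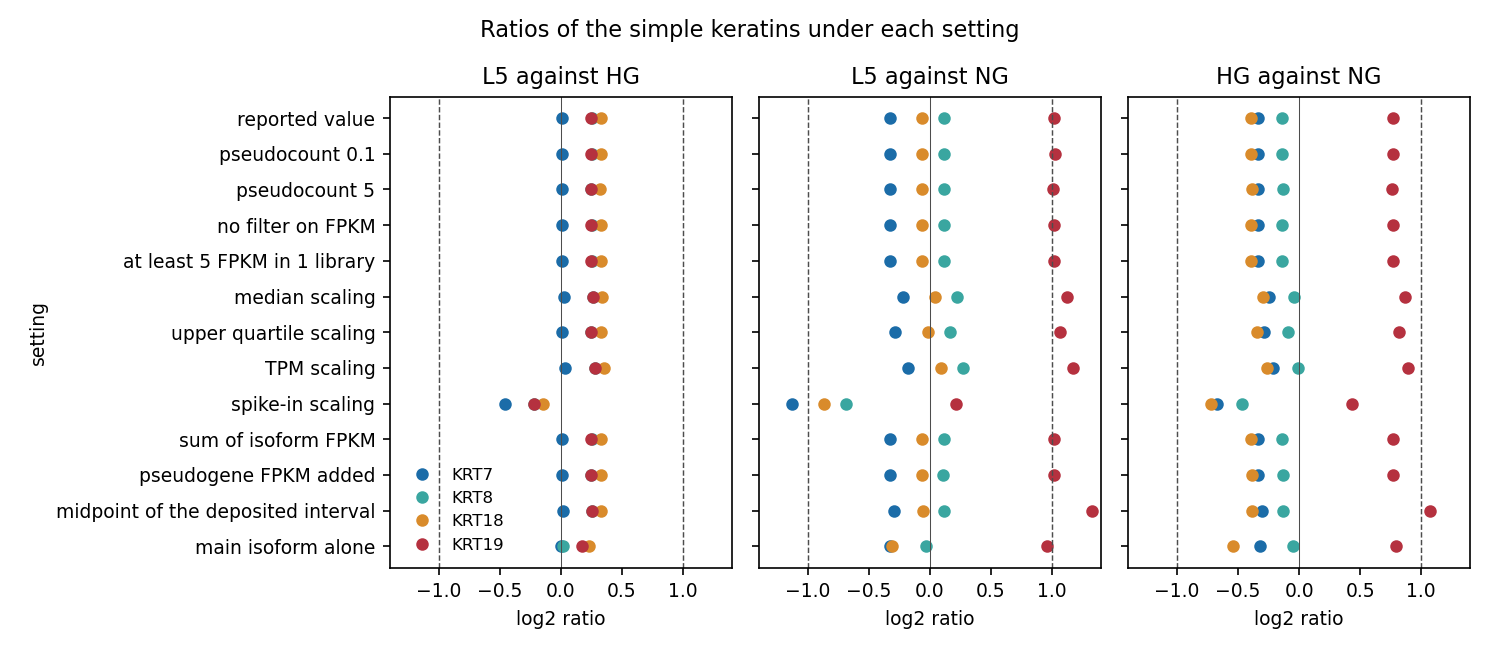
Log2 ratio of each simple keratin in L5 against HG, L5 against NG and HG against NG (columns) under each processing setting (rows), with dashed lines at a ratio of 1 in size. KRT19 lies near the line in L5 against NG, at 1.02 as reported, 1.32 with interval midpoints and 0.21 with spike-in scaling, while in HG against NG it stays above the other 3 in every row.

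In a bulk library, fewer cells that make a transcript and less of it per cell cannot be told apart. Because type II and type I chains pair, the balance between them was set out. By gene FPKM KRT8 and KRT18 were close to even, with KRT8 over KRT18 at 1.07 in L5, 1.12 in HG and 0.942 in NG. The gene in slight excess thus changed sides between KKU-213 cultures. That KRT8 value includes a transcript classed as having a retained intron, at 90.8, 39.1 and 59.3 FPKM in L5, HG and NG. The full-length coding KRT8 transcript alone, at 299, 296 and 306 FPKM, was below the KRT18 gene in every library (403, 321 and 421 FPKM). KRT7 over KRT19, by contrast, was 1.39 in L5, 1.64 in HG and 3.55 in NG. The summed type II chains (KRT7 and KRT8) came to 1219 FPKM in L5, 1145 in HG and 1389 in NG, against 970, 798 and 701 FPKM for the type I chains (KRT18 and KRT19). The ratio of type II to type I was 1.26 in L5, 1.43 in HG and 1.98 in NG, and with interval midpoints 1.15, 1.31 and 1.91. With all 54 keratin genes counted it was 1.17 in L5, 1.15 in HG and 1.82 in NG, since the other keratins add to both types. Except for that coding transcript, these are values of gene RNA, which include transcripts not classed as coding. Protein was not measured.

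The summed level of the 4 genes differed little, at 2189 FPKM in L5, 1943 in HG and 2090 in NG. What differed was its makeup and what stood beside it. KRT19 made up 25.9% of the sum in L5, 24.6% in HG and 13.4% in NG, and KRT7 36.0%, 40.3% and 47.5%. KRT8 held 18.6% to 19.6% and KRT18 16.5% to 20.2%. The simple keratins held 76.9% of all keratin FPKM in L5, 84.7% in HG and 94.6% in NG, and the other 50 keratin genes together were listed at 657 FPKM in L5, 352 in HG and 118 in NG. The sum of the other keratins was thus 5.55-fold higher in L5 than in NG, beside 1.05-fold for the 4 simple ones.

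**Figure D4:**
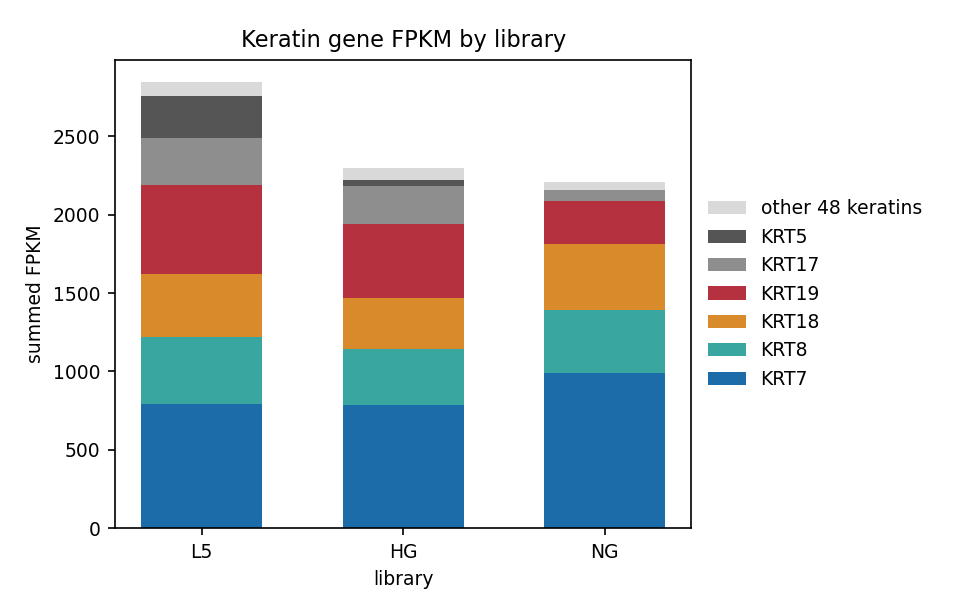
Stacked FPKM of keratin genes in L5, HG and NG, 1 library each, with the 4 simple keratins at the bottom, then KRT17, KRT5 and the other 48 keratin genes. The coloured part has a like height in all bars, 2189, 1943 and 2090 FPKM, with a wider KRT19 band in L5 and HG.

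Of the 50 other keratins, 8 reached 1 FPKM in a library and 6 reached 10. KRT17, a type I keratin of basal and injured epithelium, was listed at 301 FPKM in L5, 237 in HG and 68.0 in NG, the same order as KRT19. KRT5, the type II keratin of basal cells, was listed at 270, 43.3 and 1.71 FPKM, and KRT6A, a type II keratin of wounded epidermis, at 25.5, 15.4 and 0.593 FPKM. KRT15, a basal type I keratin, stood at 15.7, 14.1 and 3.86 FPKM. KRT80 (20.8, 21.1 and 31.9 FPKM) and KRT10 (10.4, 8.64 and 10.3 FPKM), which did not pass the size rule in any comparison, were the remaining ones at 10 FPKM. KRT20, the simple keratin of gut epithelium, was listed at 0.00963 FPKM in L5 and at 0 in HG and NG. By the size rule 3 of 5 measured other type I keratins and 2 of 3 other type II keratins were higher in HG than in NG and none lower, with median log2 ratios of 1.64 and 3.37. In L5 against HG none of 5 and 1 of 3 were higher (medians 0.24 and 0.69), and in L5 against NG 4 of 5 and 2 of 3 (medians 1.79 and 4.05). KRT6A, KRT14, KRT16 and KRT17 have close copies among the keratins, so the split of their reads is uncertain.

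KRT19 lies on chromosome 17 at 39679869 to 39684560 (ENSG00000171345) in the cluster of type I keratins, and the other 3 on chromosome 12, KRT7 at 52626304 to 52645970 (ENSG00000135480), KRT8 at 53290977 to 53343738 (ENSG00000170421) and KRT18 at 53342655 to 53346685 (ENSG00000111057), all on GRCh37, 1-based. The genes at 1 FPKM or more nearest to KRT19 were KRT15 at lower and KRT14 at higher coordinates. KRT15 had log2 ratios of 1.64 in HG against NG, 0.15 in L5 against HG and 1.79 in L5 against NG, and KRT14, at 6.27, 7.70 and 0.252 FPKM in L5, HG and NG, had 2.80, -0.26 and 2.54. Both neighbours of KRT19 were thus higher in HG and L5 than in NG, as was KRT19. KRT7 lies between KRT80 (-0.57, -0.02 and -0.59) and KRT6A (3.37, 0.69 and 4.05), which had ratios of opposite sign. On one side of KRT8 and KRT18 the nearest such gene was KRT5 (4.03, 2.61 and 6.64), and beyond KRT18 came the translation factor EIF4B (0.10, 0.12 and 0.22). KRT5, beside KRT8 and KRT18 on chromosome 12, had the largest ratio of any measured keratin in all 3 comparisons.

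Several annotated genes overlap the members. The gene RP3-416H24.1, paired with the symbol KRT7-AS by its gene ID in the reference table of names, lies inside KRT7 and was listed at 6.47 FPKM in L5, 5.96 in HG and 12.1 in NG, highest in NG as KRT7 was. The short gene AC107016.1 lies over the end of KRT18 and was listed at 6.68 FPKM in L5, 1.32 in HG and near 0 in NG. The distal first exons of KRT8 lie inside the KRT18 locus. The libraries were strand-specific per the labels, but whether the counting used the strand is not given in the sources used here, and if it did not, reads in these overlaps cannot be assigned.

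At the level of transcripts, KRT7 came almost wholly from ENST00000331817, which held 91.6% of its FPKM in L5, 92.4% in HG and 91.2% in NG. None of its 12 other transcripts reached 5% of the gene. KRT8 came from 2 main transcripts that differed from each other in pattern. The full-length coding transcript ENST00000293308 was level, at 299 FPKM in L5, 296 in HG and 306 in NG. The short transcript ENST00000549176 of 770 bases, classed in GENCODE 29 as having a retained intron, was listed at 90.8 FPKM in L5 (interval 85.6 to 96.1), 39.1 in HG (36.0 to 42.2) and 59.3 in NG (54.6 to 64.1). Its log2 ratio was -0.59 in HG against NG, 1.20 in L5 against HG and 0.61 in L5 against NG, and its share of KRT8 was 21.1% in L5, 10.8% in HG and 14.9% in NG. Between L5 and HG the main KRT8 transcript thus had a log2 ratio of 0.01, beside 0.25 for the gene. The 8 KRT8 transcripts that start inside the KRT18 locus held 7.93% of KRT8 in L5, 4.80% in HG and 6.04% in NG, again with HG lowest.

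KRT18 came from 2 coding transcripts, which start at 53342655 and 53342748. ENST00000388837 was listed at 247 FPKM in L5, 210 in HG and 307 in NG, and ENST00000388835 at 149 FPKM in L5, 103 in HG and 101 in NG. The second made up 37.0% of KRT18 in L5, 32.1% in HG and 23.9% in NG, so the transcripts shifted in share while the gene as a whole differed little between L5 and NG. KRT19 came from the full-length ENST00000361566, at 421 FPKM in L5, 374 in HG and 216 in NG, and the shorter ENST00000593096 of 728 bases, at 135, 88.2 and 56.7 FPKM. Both KRT19 transcripts were in the order L5, HG, NG, and in NG both were listed above their intervals (179 to 188 FPKM and 36.4 to 43.7 FPKM). The shorter one held 23.8% of the gene in L5, 18.5% in HG and 20.3% in NG. Transcript values are shares that Cufflinks assigned where transcripts overlap, and are less certain than gene values.

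**Figure D5:**
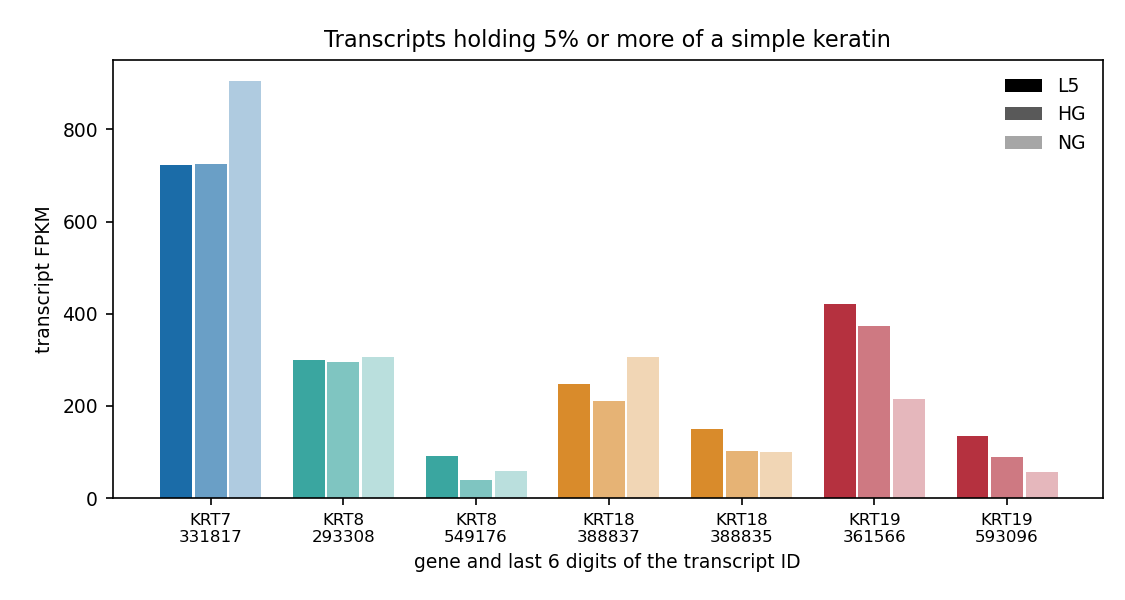
FPKM of the 7 transcripts that hold 5% or more of a simple keratin in any library, for L5, HG and NG (dark to light). The main KRT8 transcript is level at 299, 296 and 306 FPKM while the shorter one is at 90.8, 39.1 and 59.3 FPKM, and both KRT19 transcripts are lowest in NG.

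To see how common each pattern was, the members were compared with the 1540 genes at 50 FPKM or more in every library, by the root mean square difference of their centred log2(FPKM + 1) over the 3 libraries. KRT19 had 7 genes within 0.1 of its pattern, against 459 for KRT7, 247 for KRT8 and 158 for KRT18. The nearest to KRT19 were SLC3A2, the heavy chain of amino acid transporters, at 340 FPKM in L5, 279 in HG and 179 in NG (difference 0.06), then RSL24D1, a ribosome biogenesis factor, at 133, 123 and 70.5 FPKM, and the protease NRD1 at 94.6, 86.0 and 50.8 FPKM. The nearest to KRT7 were MYL6, a myosin light chain, OSTC and PSMC3, to KRT8 MSN, SSFA2 and the pseudogene RPL6P27, and to KRT18 SRP9, ATP5H and PXN. Among the members the closest pattern was that of KRT8 and KRT18, with a difference of 0.11, and the farthest that of KRT7 and KRT19, at 0.59. With 3 libraries, a likeness of this kind describes 3 values per gene and no more.

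Of 6 other intermediate filament genes measured, VIM, the mesenchymal filament protein, was the 1 past the size rule, lower in HG than in NG and higher in L5 than in HG, at 67.0 FPKM in L5, 8.55 in HG and 87.4 in NG. The lamin LMNA stood at 259, 159 and 201 FPKM, HG again lowest. The median log2 ratios of the list were -0.28 in HG against NG, 0.16 in L5 against HG and -0.07 in L5 against NG.

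The proteins that anchor keratin filaments at desmosomes and hemidesmosomes were measured for 15 genes in HG against NG, of which 2 passed the size rule, both higher. They were DST, the plakin of hemidesmosomes, at 90.7 FPKM in L5, 137 in HG and 41.3 in NG, and the desmosomal plakin DSP, at 56.6, 69.1 and 31.8 FPKM. In L5 against HG none of 14 passed, and in L5 against NG DST passed, higher, as 1 of 15. The plakin PPL had a log2 ratio of 0.95 in L5 against NG, under the limit. The list had medians of 0.07, 0.13 and 0.26 in HG against NG, L5 against HG and L5 against NG.

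The 14-3-3 proteins, which bind phosphorylated KRT18, were measured for all 7 genes and none passed the size rule in any comparison (medians 0.04, 0.15 and 0.19 in the same order). SFN, the epithelial member, was listed at 316 FPKM in L5, 285 in HG and 246 in NG, and YWHAG at 83.1, 92.1 and 72.8 FPKM. Of 18 genes that modify or remove keratins, TGM2, a transglutaminase that cross-links keratins in liver inclusions, was the 1 past the size rule, lower in HG than in NG (-1.33 ± 0.04) and higher in L5 than in HG (1.12 ± 0.04), at 22.3 FPKM in L5, 9.74 in HG and 25.9 in NG. The medians of that list were -0.05, 0.06 and -0.06.

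Among 19 measured transcription and splicing factors of epithelium, TP63, the factor of basal epithelial cells, was higher in HG than in NG (1.35 ± 0.03) and in L5 than in NG (1.24 ± 0.03), at 73.6 FPKM in L5, 79.3 in HG and 30.6 in NG, and ETS2, a factor of the ETS family, was higher in L5 than in NG (1.02 ± 0.05). No other gene of that list passed, and its medians were 0.04 in HG against NG, 0.00 in L5 against HG and 0.15 in L5 against NG. Of 9 mesenchymal factors, 2 were measured. ETS1, at 57.3 FPKM in L5, 26.5 in HG and 82.0 in NG, was lower in HG than in NG (-1.59 ± 0.04) and higher in L5 than in HG (1.08 ± 0.04), and SNAI2 stood at 55.1 FPKM in L5, 30.7 in HG and 38.3 in NG; the medians were -0.95, 0.95 and 0.00. ZEB1 and ZEB2, repressors of epithelial genes, stayed under 1 FPKM in every library.

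Surface proteins of simple epithelium gave 11 measured genes. PROM1, at 1.31 FPKM in L5, 1.42 in HG and 5.22 in NG, was lower in HG than in NG (-1.36 ± 0.12) and in L5 than in NG (-1.43 ± 0.11). EPCAM stood at 270 FPKM in L5, 238 in HG and 298 in NG, the order of KRT18. None of the 11 passed in L5 against HG, and the medians were -0.23 in HG against NG, 0.19 in L5 against HG and 0.01 in L5 against NG.

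The labelled cell type was checked against marker genes. Of 16 cholangiocyte markers 9 reached 1 FPKM in L5 and HG and 8 in NG, among them KRT7, KRT19 and EPCAM. By the size rule KRT19 was higher in L5 than in NG, GGT1 higher in L5 and HG than in NG, and SOX9 lower in HG than in NG, with list medians of 0.01 in HG against NG, 0.25 in L5 against HG and 0.31 in L5 against NG. The channel CFTR, the secretin receptor SCTR, the water channel AQP1, MUC1 and the factor ONECUT1, all used to define differentiated bile duct cells, stayed under 1 FPKM in every library, as did SPP1, so the label rests here on the keratin and surface markers. Of 10 hepatocyte markers SERPINA1 alone reached 1 FPKM, at 36.5 in L5, 27.8 in HG and 77.8 in NG, and ALB was at 0 in L5 and HG and at 0.0729 FPKM in NG. APOA1, APOB, TTR and TF were at 0 in every library. Fibroblast markers summed to 3.19 FPKM in L5, 3.51 in HG and 8.33 in NG over 7 genes, with ACTA2 the only one above 1 (2.10, 2.82 and 7.76 FPKM). SERPINA1 and ACTA2 were thus highest in NG, the library in which KRT19 was lowest, and their part in that difference was not tested. Of 5 leukocyte markers CD68 was listed at 16.1 FPKM in L5, 13.2 in HG and 12.5 in NG and CD14 at 1.83, 3.15 and 0.899 FPKM, with PTPRC under 0.1. The endothelial VWF and CDH5 were under 0.1.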

How the data were processed

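Strand-specific poly-A libraries of KKU-213L5 and KKU-213 were sequenced as paired reads of 100 bases, per the labels' protocols, 1 library per group. The FPKM values, with the bounds of their interval, were deposited by the authors; BWA, TopHat, Cufflinks and GRCh37 are named in the submitters' processing notes, without versions. The coverage values deposited by the authors per transcript are read depths without scaling to library size; with 200 bases per fragment they give about 68700000 fragments for L5, 76000000 for HG and 47100000 for NG. Intervals cover counting error only.

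Rows with the same gene ID were summed and spike-ins set aside. A comparison used genes with status OK, a longest transcript of at least 300 nt and at least 1 FPKM in 1 of its libraries. All log2 ratios are of FPKM + 1, which understates differences of low genes. Counting standard errors come from the interval width, rescaled to the listed FPKM. The ratio and size rule were tried on simulated data with counting error alone and implanted changes larger than those of the members. That trial held no spread between cultures, so it does not bear on how far single cultures differ. The members and the 15 gene lists were chosen with earlier results of these data known. Named genes follow a rule: the 4 members and transcripts at 5% of a gene; other keratins at 10 FPKM; per list up to 4 genes past the size rule at 5 FPKM or else the largest 2; the 3 pseudogenes, the nearest neighbours and the 3 most alike genes per member. Others (KRT14, KRT16, KRT20, SNAI2, PPL, EPCAM, LMNA, ZEB1, ZEB2 and markers) were chosen after their values were seen. PECAM1 was not found. Some genes of the lists and some sequences are not reported here. Sequences are from GENCODE 29 (GRCh38). Python 3.11.15, pandas 2.3.3, numpy 2.4.6, matplotlib 3.10.9 and Biopython 1.88 were used.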

Additional observations from a re-analysis of the deposited data

How the results depend on the processing

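Pseudocounts of 0.1 and 5, other filters on FPKM, sums of isoform FPKM and added pseudogene FPKM left the ratios of all 4 members within their counting intervals. Median, upper quartile and TPM scaling gave median log2 ratios of the 4 keratins of -0.14, -0.19 and -0.11, in place of -0.24, in HG against NG, and, in place of 0.03, 0.13, 0.073 and 0.18 in L5 against NG; TPM scaling gave 0.28 in place of 0.25 in L5 against HG. Spike-in scaling gave -0.57 in HG against NG, -0.22 in L5 against HG and -0.78 in L5 against NG, where the 1 member past the size rule was then KRT7, lower in L5, in place of KRT19. On that scale 3437 of all 13474 genes were lower past the size rule in L5 against NG, in place of 274. The main transcript alone gave -0.19, 0.092 and -0.17 in HG against NG, L5 against HG and L5 against NG, with 0 members past the size rule in L5 against NG. Interval midpoints, like the main transcript an alternative chosen after seeing the data, gave 1 member past it in HG against NG. Separate intervals were found for 4 members in HG against NG, 3 in L5 against HG and 4 in L5 against NG. Of all genes, 48.9%, 43.1% and 46.9% had them in the same comparisons. The type II to type I ratio was 1.27 in L5, 1.45 in HG and 2.00 in NG with pseudogenes added, and 1.15, 1.31 and 1.91 with interval midpoints, which put the simple keratin share in HG at 85.2%. The cause of these shifts was not tested. No paired analysis was possible because each group had 1 library.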
